A study of Mus musculus with 119 samples.

Results

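The Kv3 family of voltage-gated potassium channels was followed through its members Kcnc1, Kcnc2 and Kcnc4, 3 of the 55291 genes counted in each of 119 libraries. They were taken by gene symbol from both deposited count tables, not by a cutoff on their values, but with earlier results of these data known. Kv3 channels open only at strongly depolarized voltages and close very quickly, which keeps action potentials brief and lets neurons fire at high rates. Kcnc1 encodes Kv3.1 and Kcnc2 encodes Kv3.2, both delayed rectifiers that are best known from fast-spiking parvalbumin interneurons. Kcnc4 encodes Kv3.4, a subunit with rapid inactivation that is found in axons and presynaptic terminals. Subunits of the family can join in mixed tetramers.

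The libraries came from punches of 5 regions, the prefrontal cortex (PFC), the dorsal medial striatum (DMS), the nucleus accumbens (NAc), the amygdala (Amy) and the ventral tegmental area (VTA), taken from female and male C57BL/6 mice. Mice had received daily intraperitoneal injections of vehicle or of THC, the main psychoactive compound of cannabis, at 10 mg/kg from postnatal day 28 to 48, and behavioral testing began at day 63. Each region, sex and treatment had 6 libraries, except for 5 of vehicle-treated males in the VTA, where the authors left out 1 for RNA quality. After sequencing the authors also removed 1 male VTA sample from their own comparisons as an outlier, and their methods do not say which. All 119 deposited libraries were used here. The sample labels give an age of 11 weeks, the substrain C57BL/6J and, for the DMS libraries, the dorsolateral striatum, whereas the study's methods name another substrain, a later age and the DMS. Per the study's methods the punches came from 24 mice, each giving every region as a separate sample. The labels give each library its own number and do not say which libraries share a mouse.

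Total counts per library ranged from 20299010 to 25470245 in the PFC, 17826631 to 24702752 in the DMS, 12091765 to 40235601 in the NAc, 8713204 to 76111373 in the Amy and 3090998 to 77042133 in the VTA. Xist and 4 genes of the Y chromosome went with the labelled sex in 117 libraries and against it in 2, the library labelled female Amy THC FTL_344 and the library labelled male Amy THC FTL_356. Changes of the members with THC and the relations between members in the Amy are therefore given with and without both. Region markers were in place in vehicle libraries. Slc17a7, the cortical vesicular glutamate transporter, averaged 1910 CPM in the PFC, Adora2a of striatal projection neurons 584 CPM in DMS and 241 CPM in NAc libraries, and Slc6a3, the dopamine transporter, 1300 CPM in the VTA. The DMS vehicle library FTL_285 held 206 CPM of Slc17a7, against at most 19.0 CPM in any other DMS library.

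On the GRCm38 build, GENCODE places Kcnc1 on the plus strand of chromosome 7 from 46396497 to 46438704, with 9458 exonic bases over 3 transcripts. Kcnc2 lies on the plus strand of chromosome 10 from 112271121 to 112467024, with 7138 exonic bases over 5 transcripts, and Kcnc4 on the minus strand of chromosome 3 from 107438303 to 107459552, with 3667 exonic bases in 1 transcript. Each overlapped 0 other annotated genes, and 0 member values were fractional, so no reads of these genes had been divided with another gene.

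RefSeq windows of 250 bases before the start are shown for Kcnc1, which had the least variable level across regions, and for the first of 4 Kcnc2 starts, since Kcnc2 fell to a few CPM in the DMS. Capitals mark the GC box, GGGCGG on either strand, and the build is GRCm38.p6. The Kcnc1 window is chr7:46396218-46396467 on the plus strand, upstream of the gene, and the Kcnc2 window is chr10:112269767-112270016 on the plus strand, upstream of all 4 starts.
Kcnc1: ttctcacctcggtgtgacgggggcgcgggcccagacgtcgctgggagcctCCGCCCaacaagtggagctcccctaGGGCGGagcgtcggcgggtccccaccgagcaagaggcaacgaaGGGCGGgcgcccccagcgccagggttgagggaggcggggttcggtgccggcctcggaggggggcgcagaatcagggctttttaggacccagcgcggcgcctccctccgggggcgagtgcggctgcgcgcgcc
Kcnc2: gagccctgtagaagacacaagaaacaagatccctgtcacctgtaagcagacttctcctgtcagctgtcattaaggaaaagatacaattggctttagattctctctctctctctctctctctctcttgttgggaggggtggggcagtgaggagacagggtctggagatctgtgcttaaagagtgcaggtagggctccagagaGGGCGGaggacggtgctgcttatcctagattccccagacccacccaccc
The Kcnc1 window held 3 GC boxes at 74.4% GC, more GC than 95.4% of all 32851 windows, while the Kcnc2 window held 1 at 52.4% GC, which was also the median of all windows. A GC box was present in 32.7% of all windows. Neither window held a full cyclic AMP response element (TGACGTCA, 1.5% of windows) or a TATA box (TATAAA, 12.4%) on either strand. The Kcnc1 window held 1 shortened element (TGACG, 17.8% of windows) and 1 E-box (CANNTG, 66.2%), and the Kcnc2 window 0 and 3. The windows of the other Kcnc2 starts, which are not shown, held 0 GC boxes, at 52.8%, 53.2% and 58.8% GC. These are matches of letters only.

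The question of the region comparisons was where the channels are expressed in mice without THC. Levels are CPM, counts scaled to a common library size, after TMM normalization, which sets that size so that most genes do not differ. Kcnc1 was present at 88.7 CPM or more in every vehicle library, and its mean was 273.05 ± 57.0 CPM in the VTA (SD, n = 11), 198.4 ± 8.24 in the PFC, 193.5 ± 27.8 in the Amy, 167.7 ± 29.2 in the NAc and 101.4 ± 8.79 in the DMS (n = 12 each). The DMS libraries, from 88.7 to 124 CPM, did not overlap those of any other region, whereas the other regions overlapped each other.

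Kcnc2 had another order. It averaged 120.6 ± 5.64 CPM in the PFC, 85.7 ± 24.2 in the VTA, 59.4 ± 4.40 in the Amy, 33.7 ± 14.4 in the NAc and 6.89 ± 3.48 in the DMS. Without FTL_285 the DMS mean was 5.96 ± 1.31 CPM (n = 11). The PFC libraries, from 111 to 131 CPM, did not overlap those of the DMS, NAc or Amy, whereas VTA libraries reached from 48.4 to 129 CPM and overlapped the PFC.

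Kcnc4 was highest in the VTA at 100.6 ± 10.5 CPM and in the PFC at 93.4 ± 4.56, and was 73.4 ± 10.8 in the Amy, 32.2 ± 11.7 in the NAc and 5.45 ± 3.06 in the DMS, or 4.62 ± 1.11 in the DMS without FTL_285. The low levels of Kcnc2 and Kcnc4 in the DMS rested on at least 86 and 66 counts per vehicle library, so they were above the limit of detection. In bulk tissue, fewer cells that express a gene and less RNA per cell cannot be told apart.

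**Figure D1:**
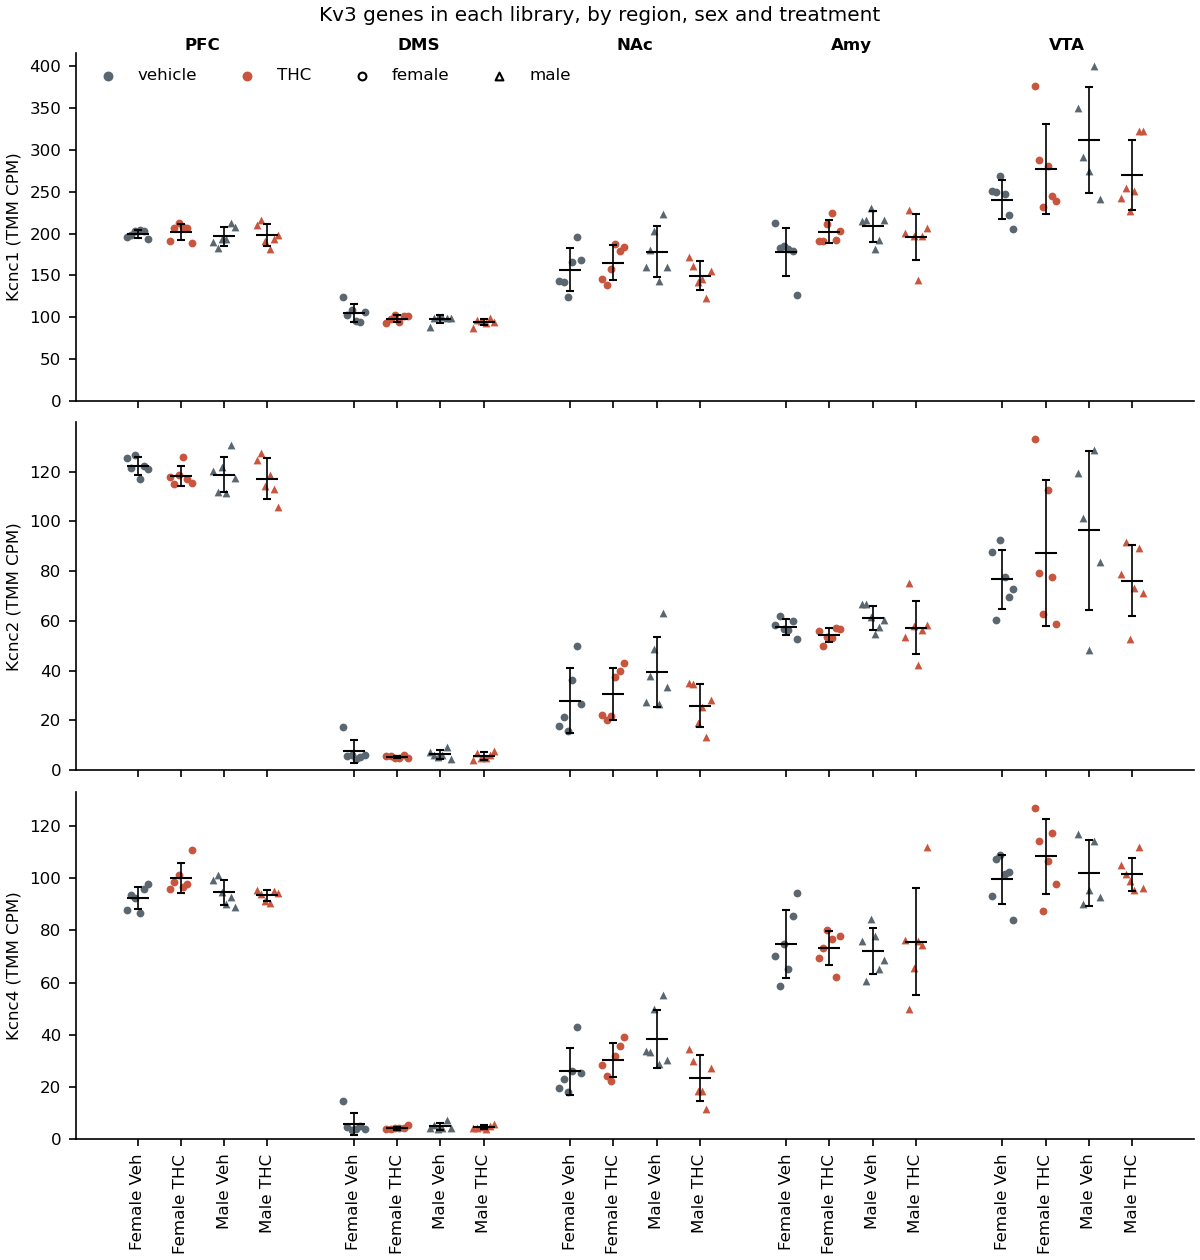
TMM-normalized CPM of Kcnc1, Kcnc2 and Kcnc4 (vertical axes from 0) in each of the 119 libraries, grouped by region, sex and treatment, with circles for females, triangles for males, gray for vehicle and red for THC. Horizontal bars are group means and whiskers 1 SD; all 3 genes were lowest in the DMS, and treated and control libraries of a region overlapped throughout.

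In the fit of the 59 vehicle libraries with sex as a covariate (edgeR quasi-likelihood test, Benjamini-Hochberg adjustment over 17712 genes), a difference was called where the adjusted p was under 0.05 and the log2 fold change was 0.4 or more in size. By this rule 25 of the 30 region differences of the 3 members were called. All 10 pairs were called for Kcnc2, 8 for Kcnc4 and 7 for Kcnc1. Calls were also common among all genes, at 49.2% for PFC against DMS, 45.2% for PFC against NAc, 37.4% for PFC against Amy, 55% for PFC against VTA, 30.7% for DMS against NAc, 43% for DMS against Amy, 57.6% for DMS against VTA, 24.8% for NAc against Amy, 52.1% for NAc against VTA and 43.4% for Amy against VTA. All pairs rest on the same libraries, and libraries of different regions from 1 mouse were treated as independent. The PFC and DMS are in one table and the other regions in another, so for the 6 pairs across them region and table cannot be told apart.

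Within the table of the PFC and DMS, Kcnc2 was higher in the PFC by 4.09 ± 0.184 on the log2 scale (SE, adjusted p = 1.06e-27) and Kcnc4 by 4.06 ± 0.164 (adjusted p = 6.61e-30). Kcnc1 was higher by only 0.94 ± 0.078 (adjusted p = 9.25e-17). The PFC and DMS libraries of all 3 genes did not overlap, in a pair where 49.2% of all genes were called. The share of all genes without overlap was not computed for any pair of regions. In ratios of mean CPM, the PFC held 17.5 times as much Kcnc2 and 17.2 times as much Kcnc4. Without FTL_285 the log2 differences were 4.34, 4.33 and 0.98.

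Within the other table, Kcnc4 was lower in the NAc than in the VTA (log2 difference -1.66 ± 0.143, adjusted p = 1.15e-15) and lower than in the Amy (-1.17 ± 0.139, adjusted p = 1.90e-10), with no overlap of libraries in either pair. For Kcnc2 the differences were -1.38 ± 0.162 for NAc against VTA and -0.81 ± 0.158 for NAc against Amy (adjusted p = 4.24e-11 and 1.67e-05), and libraries overlapped. For Kcnc1 the NAc and Amy did not pass the threshold (-0.17 ± 0.077, 95% interval -0.32 to -0.02, adjusted p = 0.0507), whereas the NAc lay below the VTA (-0.70 ± 0.079, adjusted p = 6.56e-12). All 3 genes were lower in the Amy than in the VTA, by -0.53 ± 0.078 for Kcnc1, -0.57 ± 0.158 for Kcnc2 and -0.49 ± 0.138 for Kcnc4 (adjusted p = 2.50e-08, 0.00113 and 0.00145).

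Beside the NAc and Amy for Kcnc1, the pairs that were not called were the PFC and Amy for Kcnc1 (0.06 ± 0.077, 95% interval -0.09 to 0.21, adjusted p = 0.47), the PFC and NAc for Kcnc1 (0.24 ± 0.077, adjusted p = 0.00509, below the fold threshold), the VTA and PFC for Kcnc4 (-0.12 ± 0.137 for PFC against VTA, 95% interval -0.39 to 0.15, adjusted p = 0.434) and the PFC and Amy for Kcnc4 (0.37 ± 0.134, adjusted p = 0.0132, below the fold threshold). With scaling by library size alone, the PFC difference from the Amy for Kcnc1 turned to -0.11, and that from the VTA for Kcnc2 fell to 0.31 (adjusted p = 0.0697) and was no longer called. That scaling moved the median of all genes from -0.022 to -0.194 for PFC against Amy and from -0.03 to -0.201 for PFC against VTA.

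Per kilobase of exon, which allows the genes to be compared with each other, the 3 members were close in the PFC and far apart in the striatum. In PFC libraries the vehicle means were 20.97 CPM per kilobase for Kcnc1, 16.9 for Kcnc2 and 25.5 for Kcnc4. In the DMS they were 10.7, 0.966 and 1.49. Of the sum of the 3, Kcnc1 thus made up 33.1% ± 1.3 in PFC libraries (SD, n = 12), 82.1% ± 5.5 in DMS, 57.9% ± 5.2 in NAc, 41.9% ± 4.9 in Amy and 42.1% ± 2.8 in VTA libraries (n = 11). In both striatal regions Kcnc1 was the highest per length in all 12 vehicle libraries. With the longest coding transcript as the length, the share of Kcnc1 was 34.1% in the PFC, 82.7% in the DMS and 59.4% in the NAc. That of Kcnc4 in the PFC fell from 40.2% to 34.0% and no longer stood above that of Kcnc1. The share of Kcnc2 rose from 26.7% to 31.9% in the PFC, from 17.1% to 20.8% in the Amy and from 17.4% to 21.1% in the VTA. Over all regions and members 8 shares moved by at least their SD and 7 by less.

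**Figure D2:**
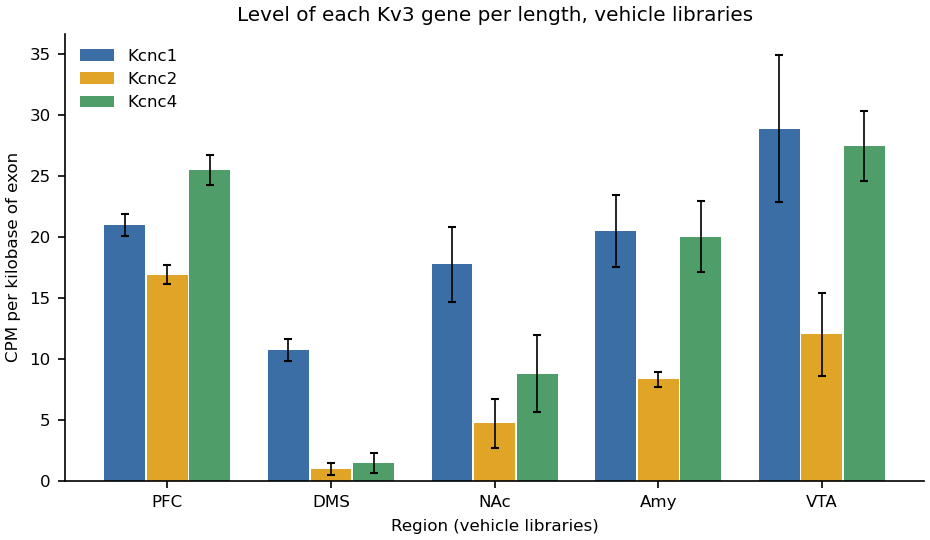
Mean TMM-normalized CPM per kilobase of exon (vertical axis from 0) of Kcnc1, Kcnc2 and Kcnc4 in the vehicle libraries of each region, with error bars of 1 SD over 12 libraries, or 11 in the VTA. In the DMS the bar of Kcnc1 stands at 10.7 and those of Kcnc2 and Kcnc4 at 0.966 and 1.49.

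The spread between libraries of a region also differed. The coefficient of variation of Kcnc2 in vehicle libraries was 4.68% in the PFC, 7.41% in the Amy, 28.2% in the VTA, 42.6% in the NAc and 50.5% in the DMS, or 22.1% in the DMS without FTL_285. Kcnc4 had 4.88% in the PFC and 36.2% in the NAc, and Kcnc1 4.15% and 17.4%. Comparisons in the NAc and VTA were therefore less precise than those in the PFC.

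The members were compared with each other across the libraries of a region on log2 CPM, in 15 relations with 100000 permutations each and Benjamini-Hochberg adjustment over the 15. In the NAc they rose and fell together. Pearson's r was 0.95 for Kcnc1 and Kcnc2, 0.90 for Kcnc1 and Kcnc4 and 0.92 for Kcnc2 and Kcnc4 (Spearman's rho 0.96, 0.87 and 0.92, n = 24, permutation p = 1e-05 for each, the smallest these permutations can give, adjusted p = 5e-05). Without the 2 libraries farthest from the median the values of r were 0.93, 0.86 and 0.89, and with the group means of sex and treatment removed they were 0.95, 0.88 and 0.92.

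In the VTA r was 0.68 for Kcnc1 and Kcnc2, 0.62 for Kcnc1 and Kcnc4 and 0.52 for Kcnc2 and Kcnc4 (rho 0.68, 0.50 and 0.46, n = 23, adjusted permutation p = 0.00096, 0.00375 and 0.0208 for r and 0.00217, 0.0375 and 0.0561 for rho), and 0.50, 0.48 and 0.33 without the 2 farthest libraries. In the DMS r was 0.60, 0.53 and 0.83 for the same pairs (adjusted permutation p = 0.0186, 0.0379 and 0.00096), but rho was 0.29, 0.06 and 0.34 and r without the 2 farthest libraries was -0.05, -0.12 and 0.28. The relation in the DMS therefore rested on those libraries.

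In the PFC and Amy the pattern split. Kcnc1 and Kcnc2 were related in the PFC (r = 0.47, rho = 0.45, adjusted permutation p = 0.029 and 0.0561, r = 0.45 without the 2 farthest libraries) and in the Amy (r = 0.59, rho = 0.51, adjusted permutation p = 0.0107 and 0.0369, r = 0.43 without them). Kcnc4 did not follow them. Its r was -0.14 with Kcnc1 and -0.14 with Kcnc2 in the PFC and -0.26 with Kcnc1 and -0.42 with Kcnc2 in the Amy (rho -0.10, -0.10, -0.10 and -0.35, adjusted permutation p for r = 0.523, 0.523, 0.247 and 0.0542, for rho 0.688, 0.688, 0.688 and 0.152), and the last value was -0.26 without the 2 farthest libraries. Without FTL_344 and FTL_356 r in the Amy was 0.59, -0.39 and -0.53 for Kcnc1 with Kcnc2, Kcnc1 with Kcnc4 and Kcnc2 with Kcnc4 (rho 0.50, -0.18 and -0.45, n = 22, permutation p for r = 0.00647, 0.0726 and 0.0123, not adjusted). Whether the relations differ between regions was not tested.

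**Figure D3:**
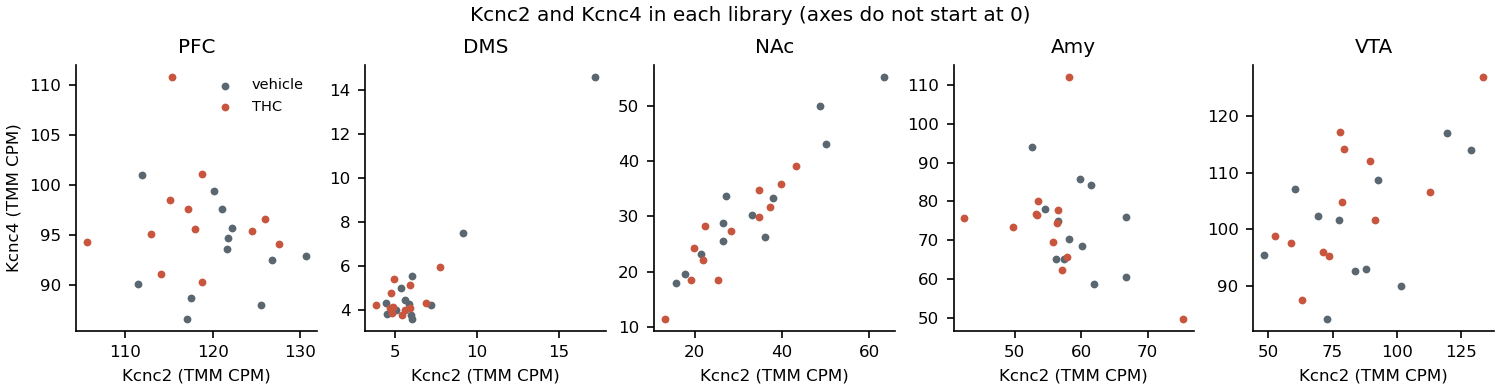
TMM-normalized CPM of Kcnc4 (vertical axes) against Kcnc2 (horizontal axes) in each library, 1 panel per region with its own scales that do not start at 0, gray for vehicle and red for THC. The NAc points follow 1 line (r = 0.92 on log2 CPM), and in the DMS the single library FTL_285 at 17.2 and 14.6 CPM stands far from the others.

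Single libraries of the Amy showed the split between members. The library labelled male Amy THC FTL_352 held 75.4 CPM of Kcnc2 and 49.7 of Kcnc4, the highest and the lowest of the 24 Amy libraries, with 43.7 CPM of Pvalb, the parvalbumin gene, and a summed level of 3193 CPM over 10 medium spiny neuron markers. Female Amy vehicle FTL_338 held the lowest Kcnc1 of the Amy at 126 CPM with 94.1 CPM of Kcnc4, and 941 CPM over 8 markers of other interneurons such as Sst and Npy, the most of any Amy library, beside 1159 CPM over 7 choroid plexus markers, a sum that was 17.6 to 30.4 CPM in 18 of the 24 Amy libraries. What part tissue makeup has in these values was not tested.

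The main question of the study was what THC changed. THC against vehicle within each region and sex gave 0 calls among the 30 tests of the 3 members (edgeR, and also 0 with DESeq2). At an unadjusted p under 0.05 there were 3 with edgeR and 4 with DESeq2. The lowest adjusted p was 0.236 with edgeR and 0.101 with DESeq2. Among all genes the share called was 1.57% in the female Amy (186 genes higher and 81 lower) and 0.0127% in the female DMS (2 genes), and 0% in the female PFC, NAc and VTA and in the male PFC, DMS, NAc, Amy and VTA. DESeq2 called 544 genes in the female Amy and 24 in the female DMS. In the female Amy edgeR called 159 genes without FTL_344, 56 without FTL_342, 58 without FTL_339, 60 without FTL_335, 74 without FTL_340 and 129 without FTL_333. Over the other 8 comparisons, which had 0 calls in edgeR, between 1.84% and 16.7% of genes had an unadjusted p under 0.05 and DESeq2 called 0 to 6 genes.

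The male NAc held the widest differences, in the same direction for all 3 members. All 3 were also below 0 in the male VTA, the male DMS and, with FTL_285, the female DMS, and above 0 in the female NAc and VTA. Since the members rose and fell together in NAc libraries, their shared sign there is not 3 separate observations. Kcnc4 was 28.9 CPM at the lowest, 33.5 at the median and 55.1 at the highest in vehicle libraries, and 11.5, 22.9 and 34.7 with THC. Of the 6 treated libraries 4 lay below every control, but the groups overlapped. The log2 fold change was -0.72 ± 0.272 (SE, 95% interval -1.25 to -0.19, edgeR adjusted p = 0.236).

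Kcnc2 in the male NAc was 26.5, 35.5 and 63.3 CPM at the lowest, median and highest with vehicle and 13.1, 26.8 and 34.8 with THC, a log2 fold change of -0.61 ± 0.286 (edgeR adjusted p = 0.312). Kcnc1 was 143, 171 and 224 CPM with vehicle and 124, 151 and 172 with THC, with -0.255 ± 0.109 on the log2 scale (edgeR adjusted p = 0.268). No member passed the threshold, and 16.7% of all genes tested in the male NAc had an unadjusted p under 0.05. Leaving out each of the 12 libraries in turn gave log2 fold changes of -0.87 to -0.57 for Kcnc4, -0.72 to -0.42 for Kcnc2 and -0.31 to -0.18 for Kcnc1.

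Cell type markers also differed between these libraries, though no gene of the medium spiny or midbrain lists was called (0 of 97 and 0 of 49 tests over all 10 comparisons) and the sums of both groups overlapped. The summed level of 10 medium spiny neuron markers was 3100 to 4660 CPM in male NAc vehicle libraries and 4120 to 6410 with THC. That of 8 markers of midbrain GABAergic and red nucleus neurons was 15.9 to 33.8 and 6.42 to 16.0 CPM, with Gata3, Sox14 and Pou4f1 under 0.5 CPM in both groups. With these genes that low, and Otx2 also on the list of choroid plexus markers, this sum does not stand for midbrain neurons in the NAc. The sum over 12 markers of parvalbumin and fast-spiking interneurons was 1880 to 2640 CPM with vehicle and 1760 to 2290 with THC. This list includes Tac1 and Slc32a1, which striatal projection neurons also express, so its sum in the NAc does not stand for parvalbumin cells alone. Pvalb itself averaged 5.13 CPM in NAc vehicle libraries of both sexes. The vehicle library with the most of all 3 members, FTL_325, also had the lowest sum of medium spiny neuron markers of the 24 NAc libraries, 3101 CPM, and 14.7 CPM of Pvalb. The part of these markers in the differences was not tested.

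In the female NAc the log2 fold changes had the other sign, 0.07 ± 0.110 for Kcnc1, 0.145 ± 0.325 for Kcnc2 and 0.22 ± 0.216 for Kcnc4 (edgeR adjusted p = 0.993, 0.993 and 0.991), and all libraries overlapped. The test of the difference between the sexes gave -0.33 ± 0.165, -0.76 ± 0.443 and -0.95 ± 0.358 for male minus female (edgeR adjusted p = 0.472, 0.525 and 0.394). None passed.

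The female PFC gave the third unadjusted p under 0.05. Kcnc4 was 86.6, 93.1 and 97.6 CPM at the lowest, median and highest with vehicle and 95.7, 98.0 and 111 with THC, a log2 fold change of 0.11 ± 0.041 (edgeR adjusted p = 0.786), and 3 of the 6 treated libraries lay above every control. Here the spread was small enough to bound the effect, with a 95% interval of 0.03 to 0.19. In the PFC of both sexes the intervals of all 6 values lay between -0.11 and 0.19, so that a change by the study's threshold of 0.4 was outside each of them.

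In the female Amy, where 1.57% of genes were called, Kcnc1 was 126, 183 and 213 CPM with vehicle and 191, 198 and 225 with THC (lowest, median and highest), a log2 fold change of 0.175 ± 0.097 (edgeR adjusted p = 0.301), 0.175 again without FTL_344 (adjusted p = 0.392) and 0.09 without the vehicle library FTL_338. Kcnc2 changed by -0.09 ± 0.051 and Kcnc4 by -0.04 ± 0.104 (edgeR adjusted p = 0.292 and 0.851), or -0.105 and -0.06 without FTL_344. The sum of 10 cortical and basolateral projection neuron markers was 703 to 977 CPM with vehicle and 1010 to 1380 with THC, that of 12 hypothalamic and medial amygdala markers 69.1 to 98.3 and 47.3 to 71.8 CPM, and Hcrt was under 0.5 CPM in both groups. The sum of 10 medium spiny neuron markers was 559 to 1240 and 976 to 1600 CPM. Median depth was 26933796 counts with vehicle and 44472650 with THC. The part of these in the values was not tested.

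In the male Amy the changes were -0.09 ± 0.092 for Kcnc1, -0.09 ± 0.104 for Kcnc2 and 0.07 ± 0.151 for Kcnc4 (edgeR adjusted p = 1.00 each). Without FTL_356 Kcnc1 was -0.10 and Kcnc2 -0.09. Without that library, which held the most Kcnc4 of any Amy library at 112 CPM, Kcnc4 turned to -0.07 (adjusted p = 0.998).

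In the VTA, Kcnc1 was 205.6, 248.7 and 269.4 CPM in female vehicle libraries (lowest, median and highest) and 232.0, 262.7 and 376.8 with THC, and the 5 male vehicle libraries had 241.0, 275.2, 291.2, 350.9 and 400.2 CPM against 227.7, 252.8 and 323.2 with THC. The log2 fold change was 0.20 ± 0.107 in females and -0.21 ± 0.131 in males (edgeR adjusted p = 0.592 and 0.819), and without the male vehicle library FTL_372 the male value was -0.105. The interaction of sex and treatment was -0.41 ± 0.178 (edgeR adjusted p = 0.78). For Kcnc2 it was 0.18 ± 0.205 and -0.37 ± 0.212, for Kcnc4 0.12 ± 0.084 and -0.01 ± 0.074, with adjusted p from 0.673 to 1.00. The female THC library FTL_363 held the most of all 3 members among the female VTA libraries, 376.8, 133 and 127 CPM, together with 136 CPM of Pvalb and the lowest sum of 10 dopaminergic markers of all VTA libraries, 1196 CPM. The sum of 8 markers of other interneurons was 273.67 to 315.86 CPM in male vehicle libraries and 338.12 to 444.2 with THC. This list includes Calb2, which was also listed as a marker of the thalamus, so its sum does not stand for interneurons alone. The sum of midbrain GABAergic and red nucleus markers was 209.83 to 302.99 CPM with vehicle and 301.85 to 432.92 with THC in females. The part of these in the values was not tested. Male vehicle FTL_371, the shallowest library at 3090998 counts, held the least Kcnc2 of the VTA at 48.4 CPM.

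**Figure D4:**
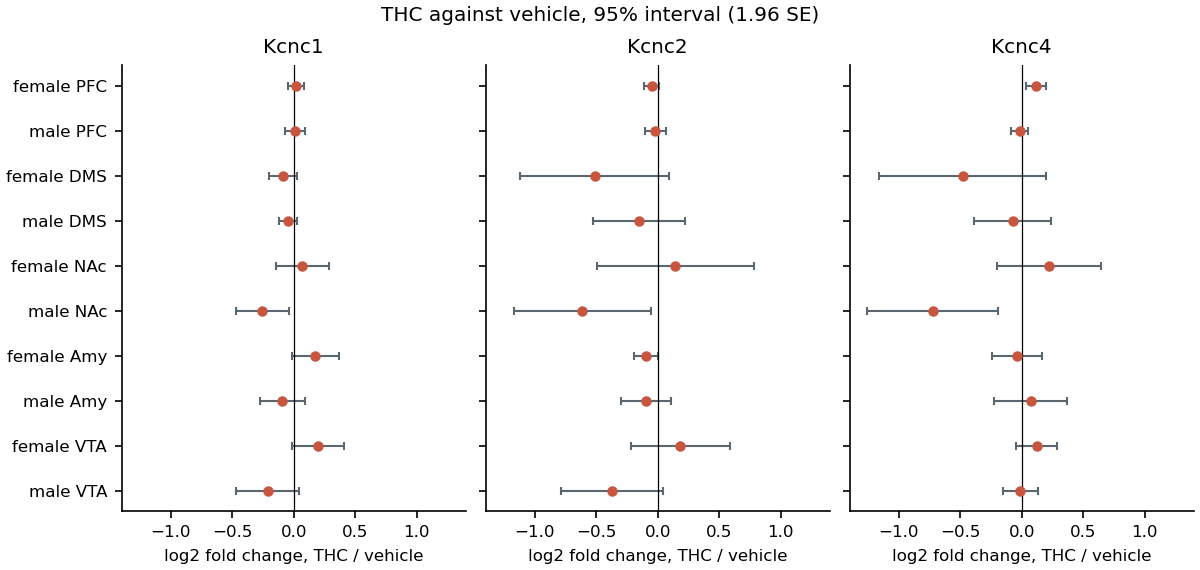
Log2 fold change of THC against vehicle (horizontal axis, 0 marks no change) for each member in the 10 comparisons of region and sex, with 95% intervals from edgeR. The intervals are narrow in the PFC and wide in the DMS and NAc for Kcnc2 and Kcnc4. All 3 members lie left of 0 in the male NAc, the male VTA and the DMS of both sexes. They lie right of 0 in the female NAc and VTA, and none of the 30 values was called.

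In the DMS, Kcnc2 and Kcnc4 were at 3.62 to 17.2 CPM in all groups, and their changes with THC were -0.51 ± 0.310 and -0.48 ± 0.346 in females (edgeR adjusted p = 0.672 and 0.725). Without FTL_285 these became -0.06 and 0.04, and the value of Kcnc1 went from -0.09 ± 0.059 to -0.03. In males they were -0.15 ± 0.192 and -0.07 ± 0.158, and for Kcnc1 -0.05 ± 0.039 (edgeR adjusted p of 1.00 each in males).

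With female and male libraries of a region in 1 model that holds sex, 0 of 15 values were called with edgeR or DESeq2, and 0 had an unadjusted p under 0.05. Among all genes 0% were called in the PFC, DMS, NAc, Amy and VTA, in which 776 to 1700 genes had an unadjusted p under 0.05 and DESeq2 called 0 to 2. All 5 values of Kcnc2 were below 0, from -0.33 in the DMS to -0.03 in the PFC, and all 5 intervals of 95% held 0. The regions came from the same mice, so the 5 signs are not independent. In the NAc and VTA the values of Kcnc2 by sex had opposite signs. The DMS value was -0.11 without FTL_285. Without FTL_344 and FTL_356 the Amy values were 0.03, -0.10 and -0.07 for Kcnc1, Kcnc2 and Kcnc4, against 0.04, -0.09 and 0.02 with them. The interaction of sex and treatment was called for 0 of 15 values with either tool, with an unadjusted p under 0.05 for 3 in edgeR and 4 in DESeq2, and the share of all genes called was 0% in the PFC, DMS, NAc and VTA and 0.0059% in the Amy. In the Amy edgeR called 1 gene, or 0 without FTL_344 and FTL_356, and DESeq2 called 27. In the 4 regions with 0 calls, 965 to 1845 genes had an unadjusted p under 0.05 and DESeq2 called 0 to 3. Beside Kcnc4 in the NAc and Kcnc1 in the VTA, the third was Kcnc4 in the PFC (-0.13 ± 0.053, edgeR adjusted p = 0.834).

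Males and females did not differ past the threshold in any member, with 0 of 15 values called by edgeR or DESeq2 and 0 at an unadjusted p under 0.05, against calls for 0.24% of all genes (PFC), 2.64% (DMS), 0.243% (NAc), 0.012% (Amy) and 0.109% (VTA). Without FTL_344 and FTL_356 the calls in the Amy went from 2 to 14 genes, and the member differences there were 0.10, 0.09 and -0.07 for Kcnc1, Kcnc2 and Kcnc4, against 0.095, 0.09 and -0.005 with them. Without FTL_285 the calls in the DMS went from 432 to 768 genes. The log2 differences, male minus female, ranged from -0.07 ± 0.036 for Kcnc1 in the DMS (means 96.1 and 101.8 CPM, edgeR adjusted p = 0.196) to 0.149 ± 0.097 for Kcnc1 in the VTA (289.2 and 258.9 CPM, adjusted p = 0.773). Without FTL_285, Kcnc4 in the DMS was 0.21 higher in males (edgeR adjusted p = 0.155).

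The channels that act beside Kv3 in fast-firing neurons were followed as a list of 10 sodium, Kv1 and HCN channel genes. From DMS to PFC 6 of the 10 were higher in the PFC and 1 lower, with a median log2 difference of 0.76 against -0.059 over all genes, of which 49.2% were called. Kcna2, a Kv1 channel of axons, was higher in the PFC by 1.009 ± 0.078 (edgeR adjusted p = 7.79e-18). Between the DMS and the VTA 2 were higher in the DMS and 4 in the VTA (median -0.31, against -0.021 over all genes, of which 57.6% were called), and Scn4b, a sodium channel subunit, was higher in the DMS by 4.48 ± 0.310, against the direction of the Kv3 genes. With THC, 0 of 100 tests of this list in the 10 comparisons were called.

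Of 10 genes of proteins that bind or modify Kv3 channels, 9 could be tested. In the PFC 4 were higher than in the DMS and 0 lower (median 0.37, against -0.059 over all genes, of which 49.2% were called), among them Fmr1, the gene of the fragile X protein (0.47 ± 0.037, edgeR adjusted p = 1.17e-17). With THC 2 of 90 tests were called, both in the female Amy, where 1.57% of all genes were called. Among them was Prkcb, a protein kinase C, by 0.70 ± 0.159 (edgeR adjusted p = 0.0367), which was not called without FTL_344 (0.73, adjusted p = 0.0552). The sums of regional markers given above differed between the groups of that comparison, and their part was not tested.

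Markers of parvalbumin and fast-spiking interneurons moved in both directions between the same regions. From DMS to PFC 6 of 12 were higher and 3 lower in the PFC (median 0.40, with the same -0.059 and 49.2% over all genes), with Hapln4, a link protein of perineuronal nets, higher by 3.801 ± 0.164 and the peptide gene Tac1 and the GABA transporter gene Slc32a1 lower (-3.91 ± 0.136 and -2.04 ± 0.071; edgeR adjusted p = 1.57e-28, 3.21e-33 and 2.51e-34). Tac1 and Slc32a1 are also expressed by striatal projection neurons. Pvalb itself averaged 36.5 CPM in the PFC, 60.1 in the VTA, 10.5 in the Amy, 5.13 in the NAc and 5.03 in the DMS. With THC 2 of 119 tests of the list were called, both in the female Amy, where 1.57% of all genes were called. They were Hapln4 at 0.43 ± 0.089 and Lhx6, a transcription factor of these interneurons, at -0.48 ± 0.098 (edgeR adjusted p = 0.0259 for both). Without FTL_344 they were 0.44 and -0.51 (adjusted p = 0.0482 and 0.0415), and their values were not recorded with any other library left out. Regional marker sums given above differed between the groups of that comparison, and their part was not tested.

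The study named Hapln4, Elavl2 and Zcchc12 beside Kcnc1 as key drivers in the NAc, hubs of gene networks built from other data onto which modules of these samples were laid, so the list is not independent evidence. Elavl2, a neuronal RNA-binding protein, was higher in the PFC than in the DMS by 1.89 ± 0.090, whereas Zcchc12, a zinc finger gene, was lower in the PFC (-2.06 ± 0.069; edgeR adjusted p = 3.60e-27 and 2.89e-35). With THC Zcchc12 changed by -0.50 ± 0.085 in the female Amy (edgeR adjusted p = 0.0134, and 0.0371 without FTL_344), where 1.57% of all genes were called. Regional marker sums given above differed between the groups of that comparison, and their part in the value of Zcchc12 was not tested. Its value was not recorded with any other library left out. Elavl2 was called in no comparison of THC.

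Genes with the pattern most like each member were found by Pearson's r of log2 CPM over the 59 vehicle libraries, as a description, since libraries of a region share its makeup. For Kcnc1 these included Rab11fip5 (0.97), Pnkd (0.96), Mast4 (0.96) and Ctif (0.96). For Kcnc2 they were Elavl4, a neuronal RNA-binding protein (0.98), Hapln4 (0.98), Kcna6, a Kv1 channel (0.98), Bri3bp (0.98) and Syt13, a synaptotagmin (0.98), and for Kcnc4 Mast1 (0.99), Vwa5b2 (0.99), Tmem25 (0.98), Tuba1b (0.98) and Susd2 (0.98). Kcnc4 came sixth for Kcnc2, with r = 0.974. A higher r with Kcnc1 than that of Kcnc2 (0.88) was found for 251 genes, a count that includes Kcnc1 itself.

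With the means of the 20 groups removed, which leaves the variation between libraries of 1 group, the closest genes over all 119 libraries were mostly others. They were Ank1, an ankyrin (0.87), Slc4a8, a sodium-driven bicarbonate exchanger (0.87), Camta1 (0.84), Panx2 (0.83) and St8sia1 (0.83) for Kcnc1. For Kcnc2 they were Bcat1, a branched-chain aminotransferase (0.85), Plcxd2 (0.84), Nrip3 (0.79), Grin2d, an NMDA receptor subunit (0.79), and Limk1 (0.78). For Kcnc4 they were Car10 (0.88), Syt13 (0.87), Mast1 (0.82), Slc6a7, a proline transporter (0.82), and Gnas (0.82). Mast1 was on both lists for Kcnc4. On this measure Kcnc2 had r = 0.69 with Kcnc1 and with Kcnc4, and Kcnc1 had 0.44 with Kcnc4.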

How the data were processed

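RNA from 119 punches was sequenced by the authors as stranded, poly(A)-selected paired-end libraries. The submitters' processing notes and the study's methods name trimming with cutadapt 2.9, alignment to mm10 with STAR 2.7.3a and counting with RSEM 1.3.1, and the annotation release is not given in the sources used here. The deposited values are the authors' expected counts per gene, not normalized, in 2 tables (48 libraries of PFC and DMS, 71 of the others). They were rounded here to whole numbers. Of the columns of single libraries, 0 were left unused.

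Comparisons used edgeR 4.0.16 in R 4.3.3 (filterByExpr, TMM, robust quasi-likelihood F test) with Benjamini-Hochberg adjustment over all genes tested, called at FDR under 0.05 and a log2 fold change of 0.4 or more in size. Each SE is the log2 fold change divided by the square root of F, and intervals are approximate. Log2 CPM used a prior count of 2. Groups came from the labels. Each of 24 mice gave every region, but nothing shows which libraries share a mouse, so p-values measure the spread between libraries. The total counts per library, 3090998 to 77042133, set the counting error, which for members with about 100 counts in a DMS library was near the whole spread of some groups. No pair of libraries of the same group agreed within sampling noise, and libraries of different groups were not compared in this way. The edgeR and DESeq2 tests were tested on simulated data.

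Alternatives were DESeq2 1.42.0 (the study's tool), its size factors in edgeR, library size only, no filter, 1 joint fit for the 4 groups of each region, all 119 libraries for the regions, the Amy without FTL_344 and FTL_356, and single libraries left out. DMS fits without FTL_285, the longest coding transcript as length, Amy relations without the pair and list genes of the female Amy without FTL_344 were chosen after seeing the data. The members and gene lists were chosen with earlier results of these data known. The text names the 3 members, for each the 5 genes most like it by either measure, and of a gene list its counts with up to 3 called genes of smallest p, and single markers or libraries outside this rule were chosen after their values were seen. One gene of the family, and some genes that this rule names, are not reported here.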

Additional observations from a re-analysis of the deposited data

Results flagged for a closer look

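Among the 60 sets of values (3 genes in 20 groups), 8 held a library farther from the rest than Dixon's ratio allows at the 95% level. Chance alone flags about 1 in 20 sets, and the 3 genes share libraries.

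Female DMS vehicle FTL_285 stood apart for 2 genes, with 17.2 CPM of Kcnc2 against 4.54 to 6.04 in the other 5 libraries and 14.6 CPM of Kcnc4 against 3.62 to 5.04. The same library held 206 CPM of Slc17a7 and 407 CPM summed over 10 cortical projection neuron markers, against 104 to 158 in all other DMS libraries. Its part in these values was not tested beyond leaving the library out.

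Female DMS THC FTL_296 had 5.42 CPM of Kcnc4, above 3.78 to 4.17 in the others, with 10.7 CPM of Slc17a7. Female NAc vehicle FTL_313 had 43.0 CPM of Kcnc4, above 18.0 to 26.2. Male DMS vehicle FTL_297 had 88.7 CPM of Kcnc1, below 98.6 to 101. The library labelled male Amy THC FTL_354 had 145 CPM of Kcnc1, below 197 to 228, and was the shallowest of the Amy at 8713204 counts. In the female PFC with THC, FTL_270 had 126 CPM of Kcnc2, above 115 to 119, and FTL_272 had 111 CPM of Kcnc4, above 95.7 to 101.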

How the results depend on the processing

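The 25 region calls of the members held, and no other member test gained a call, with DESeq2, DESeq2 size factors and no filter. With library size only, Kcnc2 for PFC against VTA fell to 0.305 and was not called (adjusted p = 0.0697), and the cause was not tested beyond the shift of all genes given above. Of the mean CPM levels of the members in the groups, that scaling moved 12 by at least the SD of the group and 48 by less. Values near 0 changed sign. With library size only these were Kcnc1 for PFC against Amy (-0.107), Kcnc4 with THC in the male VTA (0.007) and Kcnc4 with THC in the Amy of both sexes (-0.010). The interaction for Kcnc2 in the Amy was -0.001 with DESeq2 size factors, -0.014 with no filter and -0.001 with DESeq2. Without FTL_344 and FTL_356, Kcnc4 became -0.066 in the Amy of both sexes, -0.015 for the interaction and -0.068 in the male Amy. Without FTL_285, Kcnc4 became 0.038 with THC in the female DMS, the DMS interactions became -0.009, -0.089 and -0.109 for Kcnc1, Kcnc2 and Kcnc4, and male against female became 0.157 for Kcnc2 and 0.212 for Kcnc4.

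Leaving out 1 library in turn (female Amy, male NAc and male VTA for THC, and male VTA vehicle libraries elsewhere) changed no call in 210 values and turned 7. The ranges were -0.114 to 0.040 for Kcnc4 in the female Amy, turned by vehicle library FTL_338, -0.057 to 0.045 for Kcnc4 in the male VTA, turned by FTL_369, FTL_372, FTL_377 or FTL_379, -0.015 to 0.102 for Kcnc2 between the sexes of the VTA, turned by FTL_372, and -0.020 to 0.063 for Kcnc1 with THC in the VTA of both sexes, turned by FTL_373. No paired analysis was possible because the labels give each library its own number. The shallow VTA library and the spread in the NAc limit what could be found there.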
